A study of Homo sapiens with 8 samples.

Results

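Ribosome assembly and nucleolar genes were followed on Affymetrix arrays of NB4, an established myeloid line from a human acute promyelocytic leukaemia. The set held 50 named genes, of which 47 had a probe set tied to exactly 1 gene in the array annotation, out of 18132 genes measured in this way. EBNA1BP2, GNL3 and DDX18 were not analysed here. The brightest probe set, by its mean, stood for a gene, and all levels are log2 signals. All 47 lay above the level that a gene's mean had to exceed to be tested (5.83 log2), as did 12845 genes in all. The members were chosen by these values: the set was put together after GRWD1, UTP20 and RRP15 had been seen among the genes called lower in hairpin #10, and UTP3 and RRP15 among the genes lowest in hairpin #1. The differences of these hairpins from scramble are therefore given as description only.

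The cells had received lentivirus at a multiplicity of infection of 10, carrying either a scrambled control or 1 of 3 short hairpin RNAs against CDK2 (shCDK2 #1, #3 and #10). RNA was taken after 2 days, which the submitters name an early stage of differentiation, or after 5 days, named a late stage. There was 1 array for each construct and day, and no label says that arrays came from separate cultures. Where the hairpins are pooled, p-values therefore measure the spread between different hairpins on the same day. For a single hairpin against scramble they measure how constructs differ in their change between days. Either spread may be partly technical.

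The ribosome is built in the nucleolus. RNA polymerase I transcribes a long precursor RNA, snoRNPs modify it, the small subunit processome folds and cuts the part that becomes the small subunit, and a separate series of factors matures the large subunit. These factors are abundant in growing cells, and their genes are known targets of the transcription factor MYC. In myeloid cells ribosome production is known to decline as promyelocytes stop dividing and mature.

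Over all arrays, CDK2 did not follow the labels throughout. On its brightest probe set it stood at 95% of scramble in the day 2 array labelled #3 and at 92.9% in #10 at day 5. The next brightest gave 80.5% and 97.5%, and the dimmest 108% and 85.7%. On the brightest it read 8.19 log2 in the day 5 array labelled scramble, against 9.10 in scramble at day 2. These values were 7.85 and 9.19 on the next brightest, and 7.53 and 7.51 on the dimmest. Some medians and call counts of the members are also given without one of these arrays. Other results, among them all those of the further gene lists, are given only with them. Where values run in the order scramble, #1, #3 and #10, the names mean the arrays so labelled. Array medians lay between 6.304 and 6.427 log2. Of 8 promyelocyte markers 7 were measured, and MPO lay between 13.37 and 14.40 log2 and PRTN3 between 9.76 and 11.18, while ELANE was dim throughout, at 5.83 to 6.35. Markers of this list differed from scramble in opposite directions in #10 at day 2, the array where most members were lowest. Lower there were MPO (13.37 against 14.35 in scramble), PRTN3 (9.985 against 11.18), CTSG (8.02 against 9.29) and ELANE (5.89 against 6.31). Higher were LYZ (10.575 against 8.85), AZU1 (10.50 against 9.28) and MYB (11.52 against 10.965). Their part in the members' differences was not tested. The promyelocyte list had array means of 9.43 to 10.17. The lymphoid list (5 of 6 measured) had array means of 5.62 to 6.17, the erythroid list (3 of 5) 5.78 to 6.35, and the fibroblast and epithelial list (6 of 6) 5.51 to 5.78, close to the 5.83 log2 used as a minimum.

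For most of the 47 genes the same arrays held the highest and the lowest signal. In RNA from whole cultures, fewer cells that express a gene and less RNA per cell cannot be told apart. The scramble array of day 2 held the highest signal for 45 of them, against 16.4% of all tested genes, and the other 2, DDX10 and FBL, were highest in the day 2 array labelled #3. The lowest signal was in hairpin #10 at day 2 for 33 genes (15.2% of all tested genes) and in #10 at day 5 for 12 (11.5%). The median of the 47 genes was 10.08 log2 in scramble at day 2, 9.35 in #1, 9.50 in the array labelled #3 and 8.64 in #10. On day 5 the medians were 9.49 in the array labelled scramble, 9.45 in #1, 9.23 in #3 and 9.03 in #10. The arrays thus lay apart at day 2 and closer together at day 5, with scramble at the level of #1. Over all tested genes the array medians lay between 7.83 and 7.99 log2.

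**Figure D1:**
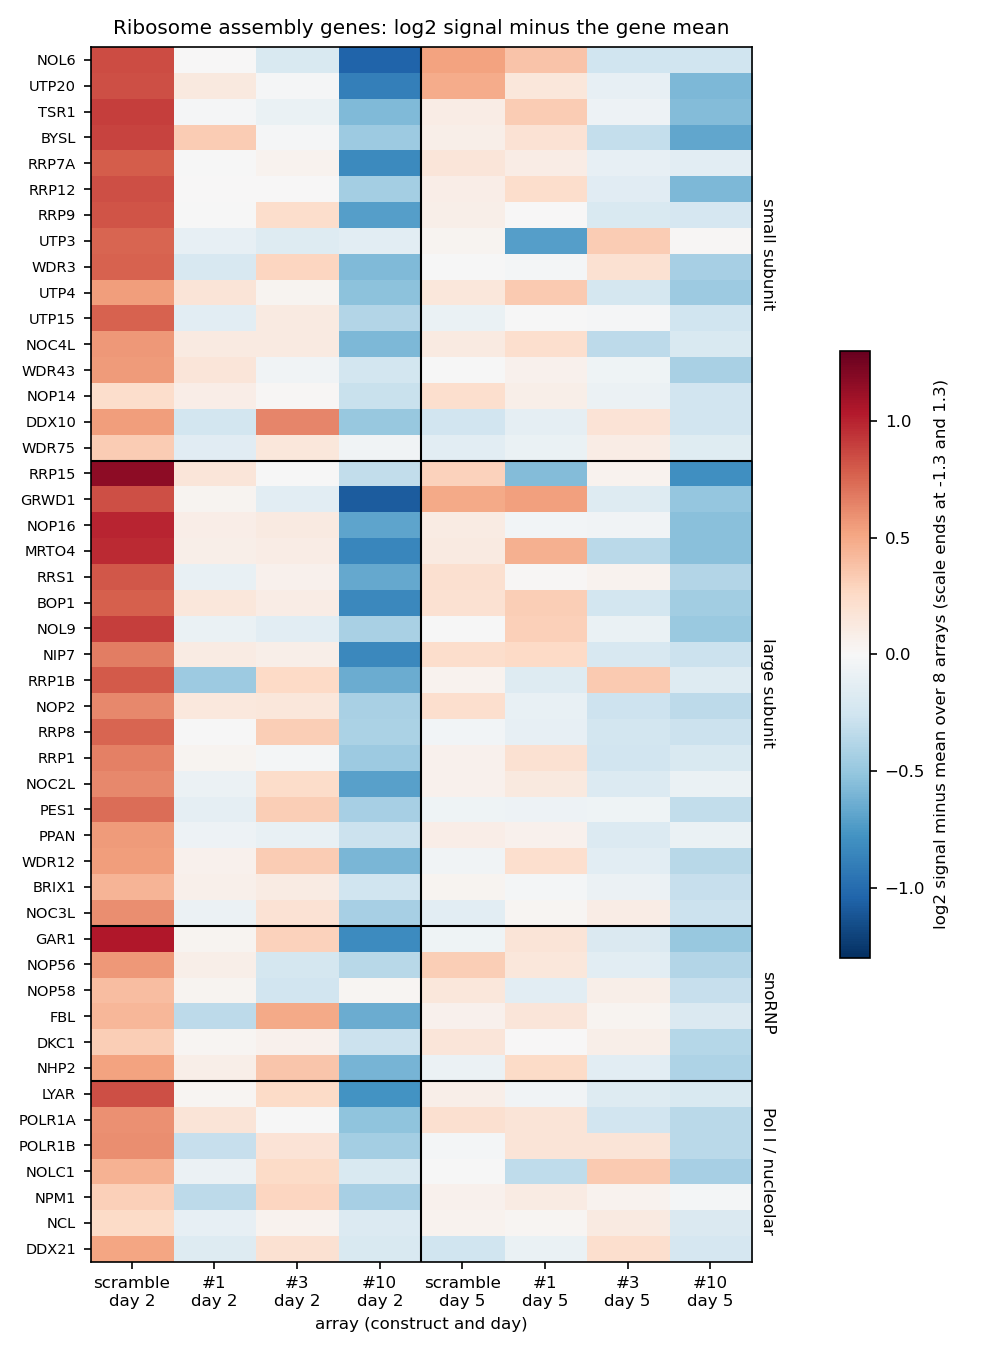
Log2 signal of each of the 47 genes minus its own mean over the 8 arrays, with arrays in columns (scramble, #1, #3, #10 at day 2, then at day 5) and genes in rows by role, sorted within a role by the mean difference from scramble. The first column, scramble at day 2, is the highest for 45 genes, and #10 at day 2 is the lowest for 33.

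The 4 genes through which the set was noticed are shown first. GRWD1, a histone-binding WD-repeat protein with a part in large subunit assembly, was the member with the largest difference in #10. Its signal at day 2 was 11.20 log2 in scramble, 10.40 in #1, 10.23 in the array labelled #3 and 9.29 in #10, and at day 5 it was 10.86, 10.90, 10.20 and 9.87 in the same order. Hairpin #10 was lowest on both days, and #1 had reached the scramble level by day 5. UTP20, a very large scaffold of the small subunit processome, read 7.93, 7.22, 7.09 and 6.21 at day 2 and 7.58, 7.24, 6.99 and 6.51 at day 5. All hairpin arrays lay below both scramble arrays for this gene.

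RRP15, a pre-60S processing factor, was the dimmest of the 47, with a mean of 6.14 log2. It read 7.31, 6.3, 6.14 and 5.83 at day 2 and 6.45, 5.58, 6.19 and 5.35 at day 5, again in the order scramble, #1, #3 and #10. Its values in #10 and in #1 at day 5 were at or under the 5.83 log2 used as a minimum, so the size of these differences is uncertain. Its dimmer probe set, with a mean of 5.08 log2, differed from scramble by -0.37 in #10, against -1.29 on the brighter one. UTP3, a small subunit processome protein, behaved otherwise: it read 9.53, 8.67, 8.62 and 8.64 at day 2 and 8.81, 8.07, 9.11 and 8.79 at day 5. Its hairpin arrays lay close together at day 2, and its lowest array was #1 at day 5.

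Sequences in front of members are shown for GRWD1, UTP20, RRP15 and NOP16. NOP16 is a large subunit assembly factor with one of the larger differences in #10. Given are the 250 bases before the first listed transcription start. They are read 5′ to 3′ on the gene's strand from RefSeq's GRCh38.p14 table, which held 41 of the 47 genes. Capitals mark the E-box CACGTG, which MYC and its partners can bind, and the core CCGGAAG of sites for ETS factors, searched on both strands. The windows are chr19:48445733-48445982 (plus strand), chr12:101279855-101280104 (plus strand), chr1:218285043-218285292 (plus strand) and chr5:176388599-176388848 (minus strand).
GRWD1: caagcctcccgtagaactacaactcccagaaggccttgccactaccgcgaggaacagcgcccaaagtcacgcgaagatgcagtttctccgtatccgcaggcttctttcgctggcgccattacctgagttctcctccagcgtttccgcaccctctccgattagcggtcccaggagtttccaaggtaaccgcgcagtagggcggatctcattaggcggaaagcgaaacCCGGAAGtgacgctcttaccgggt
UTP20: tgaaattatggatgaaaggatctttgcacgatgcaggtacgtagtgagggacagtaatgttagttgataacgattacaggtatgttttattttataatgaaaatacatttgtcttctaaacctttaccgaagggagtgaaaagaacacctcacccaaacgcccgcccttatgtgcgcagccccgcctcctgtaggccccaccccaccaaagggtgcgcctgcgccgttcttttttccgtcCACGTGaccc
RRP15: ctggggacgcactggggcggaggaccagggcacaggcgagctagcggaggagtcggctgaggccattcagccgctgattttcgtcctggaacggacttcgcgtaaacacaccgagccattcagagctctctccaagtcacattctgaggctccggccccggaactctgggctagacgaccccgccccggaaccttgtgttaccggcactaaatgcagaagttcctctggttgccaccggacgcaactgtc
NOP16: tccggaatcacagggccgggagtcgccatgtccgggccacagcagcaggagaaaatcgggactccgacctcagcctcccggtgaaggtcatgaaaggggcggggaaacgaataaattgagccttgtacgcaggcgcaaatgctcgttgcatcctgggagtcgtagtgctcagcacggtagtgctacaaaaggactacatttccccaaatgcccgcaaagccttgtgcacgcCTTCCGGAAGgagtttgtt
UTP20 held an E-box beginning 10 bases before the start, GRWD1 an ETS core beginning 24 bases before it, NOP16 a pair of overlapping ETS cores on opposite strands, and RRP15 neither motif. Over the set, 2 of 41 windows held the E-box (4.88%), UTP20 and UTP4, against 8.57% of 10382 windows of tested genes, 17.2% of the windows of other small subunit factors and 19.4% of those of other large subunit factors. The ETS core stood in 16 of 41 (39%), against 14.6% of tested genes, 34.5% and 33.3% in the same lists of other small and large subunit factors, 31.5% of 54 cytosolic ribosomal protein genes and 19.2% of 26 E2F and DNA replication genes. TATAAA stood in 1 of 41, UTP20, against 6.6% of tested genes. A match of letters describes the window only.

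Against scramble at day 2, every one of the 47 genes was lower in #10, by a median of -1.15 log2 (from -1.91 for GRWD1 to -0.37 for WDR75), and 34 of them were lower by more than 1 log2, against 4.02% of all tested genes. In #1 all 47 were lower (median -0.69), and 45 were lower in the array labelled #3 (median -0.59). The medians over all tested genes in these 3 arrays were -0.03, 0.01 and 0.03. At day 5 the differences were smaller. In #10, 46 genes were lower than in the day 5 array labelled scramble (median -0.41), in #3 35 were lower (median -0.16), and in #1 23 were lower (median 0.02). Over all tested genes 62.2%, 56.1% and 56.7% were lower at day 5, with medians of -0.11, -0.09 and -0.03. All these differences share 1 scramble array per day.

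Of the 47 genes, 17 lay below the scramble array of their day in all 6 hairpin arrays, against 8.31% of all tested genes: 7 of large subunit assembly, 5 of the small subunit, 3 of the snoRNPs, and LYAR and POLR1A. Both #10 arrays were below scramble for 46 genes (41.7% of all tested genes), both #3 arrays for 34 (25.1%) and both #1 arrays for 23 (26.3%). The order #10, #3, #1, scramble from low to high held in the construct means of 25 genes (12.9%). Since #1 and #10 led to the set, nothing is read from these counts. With the hairpins as repeats and 1 scramble array, limma called 0 of the 47 at day 2 (0% of all tested genes called; 26 members and 442 of all tested genes had an unadjusted p under 0.05) and 0 at day 5 (0% called; 0 members and 171 of all). The median change was -0.80 log2 at day 2, against 0.02 over all tested genes, and -0.17 at day 5, against -0.09. The day 2 median was -0.95 when the day 2 array labelled #3 was left out, and the day 5 median -0.09 without #10 at day 5.

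Among the 16 small subunit genes, the median difference from scramble at day 2 was -1.22 log2 in #10, -0.79 in #1 and -0.63 in the array labelled #3. NOL6, a core processome protein, had the most negative mean difference of the group. It read 9.26 in scramble, 8.41 in #1, 8.21 in the array labelled #3 and 7.36 in #10 at day 2, and 8.94, 8.78, 8.15 and 8.15 at day 5. #3 and #10 met at day 5 for this gene, below #1 and scramble. TSR1, a GTPase-like factor of late small subunit maturation, read 9.75, 8.84, 8.76 and 8.28 at day 2 and 8.95, 9.18, 8.79 and 8.29 at day 5. In #10 it was 8.28 and 8.29 on the 2 days, while scramble was lower at day 5, with a difference of -0.80 log2. WDR75, a processome protein, had the smallest mean difference, at 9.57, 9.10, 9.39 and 9.20 and then 9.11, 9.15, 9.34 and 9.08, so that hairpin and scramble arrays overlapped at day 5. DDX10, an RNA helicase of the group, read 9.11 in the day 2 array labelled #3, against 9.02 in scramble.

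The 18 large subunit genes had the largest median difference in #10 at day 2, -1.32 log2, and -0.40 at day 5, and all 18 were lower on both days. The PeBoW complex, which is needed to process the precursor of the large subunit RNA, is made of PES1, BOP1 and WDR12. PES1 read 10.08 in scramble and 8.92 in #10 at day 2, BOP1 10.20 and 8.58, and WDR12 10.06 and 8.93, and at day 5 the same pairs were 9.29 and 9.03, 9.62 and 8.98, and 9.48 and 9.16. NOP16 read 11.80, 10.90, 10.93 and 10.13 at day 2 and 10.92, 10.78, 10.77 and 10.27 at day 5, in the order scramble, #1, #3 and #10. MRTO4, which holds the place of a stalk protein on the pre-60S particle, stood at 10.38 and 8.56 in scramble and #10 at day 2. NOC3L, a partner of NOC2L on early large subunit precursors, had the smallest mean difference of the group and read 8.16, 7.48, 7.74 and 7.13 at day 2 and 7.42, 7.58, 7.65 and 7.28 at day 5, where #1 and #3 lay above scramble.

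The 6 snoRNP proteins had a median of -0.99 log2 in #10 at day 2 and -0.44 at day 5. Box C/D particles, which guide ribose methylation, contain FBL, NOP56 and NOP58, and H/ACA particles, which guide pseudouridylation, contain DKC1, GAR1 and NHP2. GAR1 differed most at day 2, at 10.77 in scramble, 9.76 in #1, 10.03 in the array labelled #3 and 8.91 in #10, and read 9.66, 9.90, 9.53 and 9.24 at day 5. NOP56 read 12.63, 12.15, 11.84 and 11.72 and then 12.39, 12.22, 11.94 and 11.69, keeping the order scramble, #1, #3, #10 on both days. NOP58 read 10.93, 10.57, 10.29 and 10.56 and then 10.68, 10.40, 10.61 and 10.23, with every hairpin array below the scramble array of its day. NHP2 read 12.65, 12.20, 12.49 and 11.52 and then 12.04, 12.38, 11.99 and 11.72, with #1 above scramble at day 5. FBL, the methyltransferase, was 12.40 in scramble and 12.46 in the day 2 array labelled #3, against 11.33 in #10, so that scramble and hairpin arrays overlapped. DKC1, the pseudouridine synthase, ranged from 11.16 to 11.85.

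The 7 genes of RNA polymerase I subunits and other nucleolar proteins had a median of -0.75 log2 in #10 at day 2 and -0.27 at day 5. LYAR, a nucleolar zinc finger protein, had the most negative mean difference of the group, with 11.34, 10.52, 10.75 and 9.72 at day 2 and 10.57, 10.45, 10.33 and 10.30 at day 5, where all 4 constructs lay close together. POLR1A, the largest subunit of the polymerase, read 8.0, 7.57, 7.4 and 6.88 and then 7.61, 7.57, 7.15 and 7.05, with #10 lowest on both days. POLR1B, the second largest, read 9.38, 8.48, 8.95 and 8.33 and then 8.75, 8.94, 8.95 and 8.43. NCL (nucleolin) lay between 12.98 and 13.42 and NPM1 (nucleophosmin) between 13.28 and 14.04 over the 8 arrays. DDX21, an RNA helicase linked to polymerase I transcription, changed side between days on its brightest probe set. It read 12.53, 11.86, 12.22 and 11.82 at day 2 and 11.76, 11.93, 12.24 and 11.80 at day 5, so that all hairpin arrays were below scramble at day 2 and above it at day 5. Its other 2 probe sets did not share this: at day 5 the next brightest had #10 below scramble (11.615 against 11.902), and the dimmest had #3 and #10 below it (11.308 and 11.17 against 11.503).

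**Figure D2:**
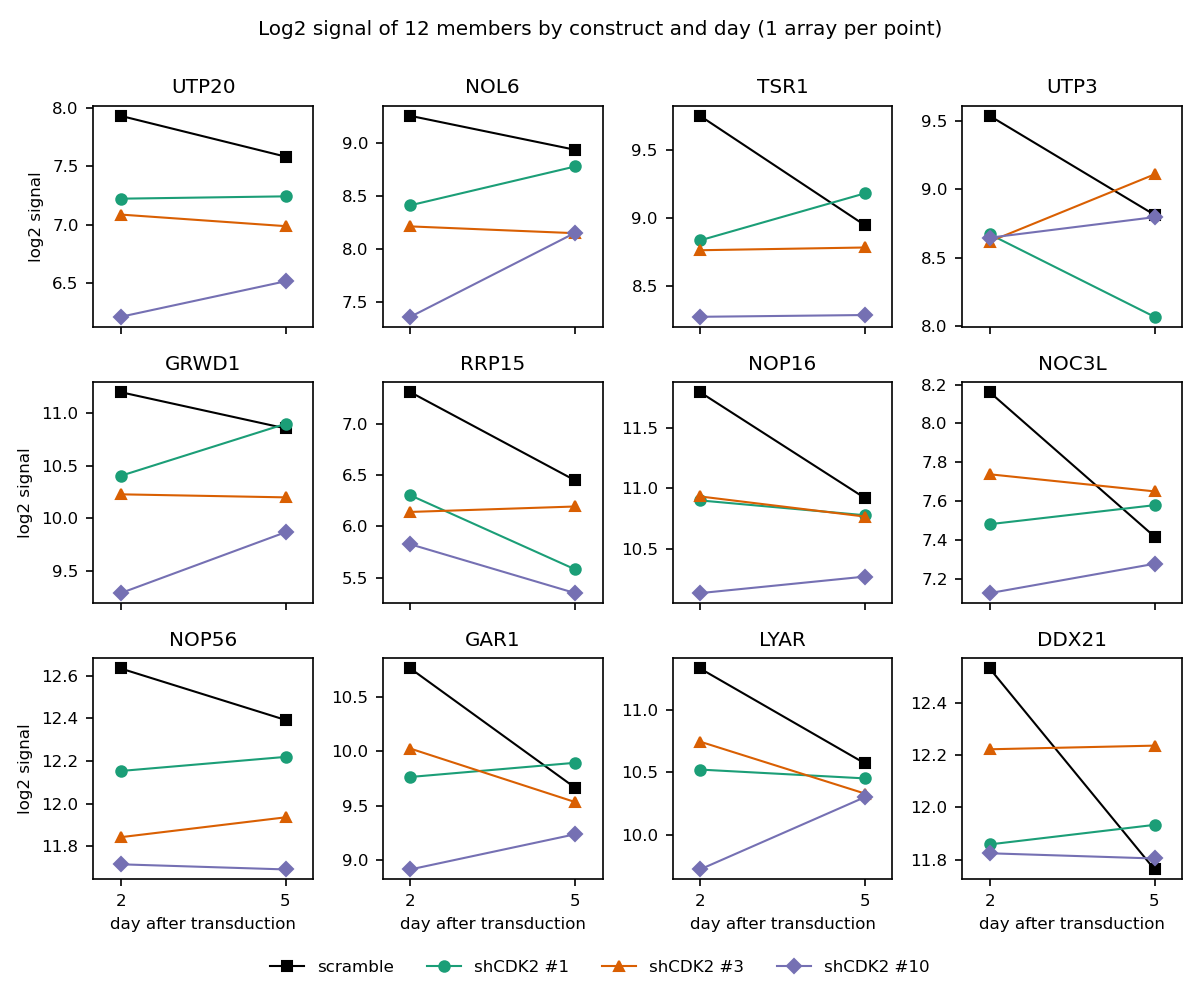
Log2 signal of 12 genes at day 2 and day 5, with 1 point per array and lines joining the arrays of a construct; each panel has its own vertical scale, which does not start at 0. Scramble at day 2 is the highest point in every panel, and the hairpin #10 line is the lowest at day 2 except for UTP3.

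The hairpins could also be set against each other without scramble. Since #10 and #1 took part in choosing the genes, these values are a description. Hairpin #10 was lower than #1 for 46 of 47 genes at day 2 (median -0.45 log2, from -1.12 to 0.10) and for 46 at day 5 (median -0.38). Over all tested genes 57.2% and 58.4% were lower, with medians of -0.07 and -0.07. Against #3, #10 was lower for 45 of the 47 at day 2 (median -0.62) and 42 at day 5 (median -0.27). Of all tested genes 58.9% and 47.3% were lower, with medians of -0.07 and 0.02. Hairpins #3 and #1 lay on both sides of each other, with 19 of the 47 lower in #3 at day 2 and 32 at day 5 (medians 0.03 and -0.16). All tested genes had shares of 51.3% and 54.7% here, with medians of -0.01 and -0.07. The SD over the 3 hairpins had a median of 0.37 log2 for the 47 genes at day 2 and 0.26 at day 5, against 0.19 and 0.25 over all tested genes. On its brightest probe set CDK2 itself stood at 34.0% of scramble in #10 and 39.9% in #1 at day 2, and at 92.9% and 81.1% at day 5. The day 2 values were 26.6% and 28.0% on the next brightest, but 71.6% and 79.7% on the dimmest. Whether CDK2 levels had a part in the difference between hairpins was not tested.

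With the days of a construct as repeats, limma gave each hairpin against scramble. The 2 arrays of #3 did not behave as repeats: over all tested genes their deviations from the hairpin mean of the day correlated at -0.23. For #1 and #10 the values were 0.72 and 0.43. In #10 the median change of the members was -0.74 log2, against -0.09 over all tested genes, and 3 of the 47 were called, all lower (2.01% of all tested genes were called, 0.319% lower and 1.69% higher). They were GRWD1 at -1.45 (SE 0.26), UTP20 at -1.39 (SE 0.21) and RRP15 at -1.29 (SE 0.25), the genes that led to the set, so nothing is read from the count. All 3 calls ended when #10 at day 2, scramble at day 2 or the day 5 array labelled scramble was left out. Leaving out #10 at day 5 ended the call of RRP15 (adjusted p = 0.091), and leaving out either array of #3 gave 7 calls. The median in #10 was -0.45 without scramble at day 2, -1.04 without the day 5 array labelled scramble, -0.55 without #10 at day 2 and -0.99 without #10 at day 5. In #3, 0 of the 47 were called (0.0311% of all tested genes, all higher; 8 members and 1216 of all had an unadjusted p under 0.05). The median there was -0.42, against -0.07, and it was -0.44 when the day 2 array labelled #3 was left out. NOL6 had a change of -0.91 (SE 0.27, adjusted p = 0.376) and GRWD1 one of -0.82 (SE 0.26, adjusted p = 0.388), and DDX10 one of 0.25 (SE 0.27). In #1, 0 were called (0% of all tested genes; 4 members and 171 of all had an unadjusted p under 0.05), with a median of -0.33 against -0.02. With scramble at day 2 left out, the members' medians were -0.050 in #1 and -0.079 in #3, against -0.047 and -0.076 over all tested genes. The day 5 array labelled scramble, left out in turn, gave -0.66 and -0.68.

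The comparison of day 5 with day 2 was not itself used in choosing the genes. The arrays of #1 and #10 that enter it were, so its values are description too. Within the hairpins limma called 0 of 47 (0% of all tested genes; 0 members and 260 of all had an unadjusted p under 0.05), and the median change was 0.03 log2, against -0.03 over all tested genes. The changes lay between -0.38 for RRP15 (SE 0.25, 95% interval -0.97 to 0.21) and 0.36 for NOL6 (SE 0.31, interval -0.38 to 1.10). By hairpin, 13 of 47 genes were lower at day 5 in #1 and 13 in #10 (medians 0.11 and 0.15), and 36 were lower in #3 (median -0.15). Over all tested genes 48.1% were lower in #1, 48.7% in #10 and 57.7% in #3, with medians of 0.01, 0.01 and -0.09. The members' median over hairpins was -0.13 without #10 at day 2, 0.12 without #10 at day 5 and 0.16 when the day 2 array labelled #3 was left out. Lower at day 5 in every hairpin were 3 genes, WDR43, BYSL and BRIX1, against 12.8% of all tested genes. No gene had all its day 5 hairpin values below or above all its day 2 values, against 3.1% and 2.79% of all tested genes.

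In the scramble arrays all 47 genes were lower at day 5 than at day 2, by a median of -0.60 log2 (from -1.10 for GAR1 to a difference near 0 for NOP14). The median of all tested genes was 0.05, and 44.0% were lower. Pathway factors outside the set were mostly lower there too. Medians were -0.47 for other small subunit factors (30 of 32 lower), -0.39 for other large subunit factors (39 of 40) and -0.24 for other polymerase I factors (11 of 13). Of the 47 genes, 28 were lower by more than 0.5 log2, against 8.45% of all tested genes. The scramble change is a difference between 1 array and 1 array and has no replicate check. Both scramble arrays also took part in choosing the genes, so this change and the difference below are description. The difference of the knockdown change between days was above 0 for 46 of 47 genes, with a median of 0.66 log2 against -0.04 over all tested genes, and limma called 0 (0% of all tested genes). UTP15, a processome protein, was the member with an unadjusted p under 0.05, at 0.90 (SE 0.35, 95% interval 0.07 to 1.72, adjusted p = 1.00), as were 164 of all tested genes. GAR1 stood at 1.09 (SE 0.63), RRP1B, a nucleolar protein of the large subunit group, at 1.04 (SE 0.55) and NOP14, a processome protein, at -0.02. Every hairpin change enters this value against the same scramble pair, so it carries the scramble change with it. The median was 0.79 when the day 2 array labelled #3 was left out, 0.72 without #10 at day 5 and 0.41 without #10 at day 2.

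**Figure D3:**
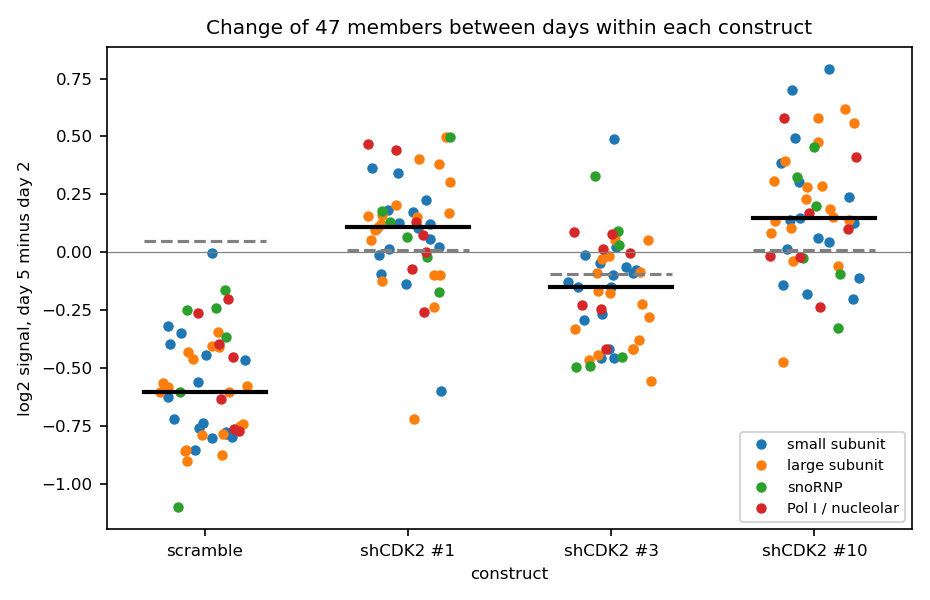
Log2 signal at day 5 minus day 2 for each of the 47 genes (points, coloured by role) within scramble and within each hairpin; black bars are medians of the 47 genes, grey dashed bars those of all tested genes. All scramble points lie below 0, with a median of -0.60, and the hairpin medians are 0.11, -0.15 and 0.15.

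Other genes of the pathway, taken from lists of small subunit, large subunit and polymerase I factors outside the set, were mostly lower in #10, with smaller medians. There the 32 tested small subunit factors had a median of -0.60 log2 (32 lower), the 40 large subunit factors -0.43 (36 lower) and the 13 polymerase I factors -0.33 (11 lower). In each list limma called 0 (16, 17 and 3 genes had an unadjusted p under 0.05). Of all 12845 tested genes, 61.3% were lower in #10, with a median of -0.09, and 2599 had an unadjusted p under 0.05. In #3 the medians were -0.21 for small subunit factors (26 lower), -0.14 for large subunit factors (30 lower) and near 0 for the polymerase I factors (6 lower, 7 higher). The median over all tested genes in #3 was -0.07, with 59.1% lower. At day 5 the polymerase I factors had a median of 0.14 in #3. In #10 limma gave EMG1, an rRNA methyltransferase, a change of -1.16 (SE 0.28, adjusted p = 0.079). Also in #10, GNL3L, a nucleolar GTPase, had one of -1.21 (SE 0.32, adjusted p = 0.096), and POLR1G, a polymerase I subunit, one of -1.06 (SE 0.25, adjusted p = 0.077). Cytosolic ribosomal protein genes encode the proteins of the ribosome itself. The 63 tested had medians between -0.06 and 0.04 in the 6 hairpin arrays against scramble and -0.04 in scramble between days, and limma called 0 of them in each of the 7 comparisons. At most 1 of them had an unadjusted p under 0.05 in a comparison. Their mean signals were high, from 10.46 to 14.95 with a median of 14.18 log2, against a median of 9.35 for the members, and whether such bright signals compress differences was not tested. RPL35A, the dimmest of the 63, had the largest mean difference among them (-0.58 in #10, SE 0.23, adjusted p = 0.224). The E2F and DNA replication list had medians of -0.67 in #10 at day 2 and -0.48 at day 5, and -0.17 in scramble between days. In #10 limma called 2 of the 29 tested, both lower, against 0.319% of all tested genes called lower. They were CDC25A, a phosphatase that activates CDK2 (-1.19, adjusted p = 0.047), and CDC45, a replication helicase factor (-0.92, adjusted p = 0.047). In the list 26 of 29 were lower, against 61.3% of all tested genes, and 18 had an unadjusted p under 0.05, against 2599 of all. The part of these genes in the members' differences was not tested.

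**Figure D4:**
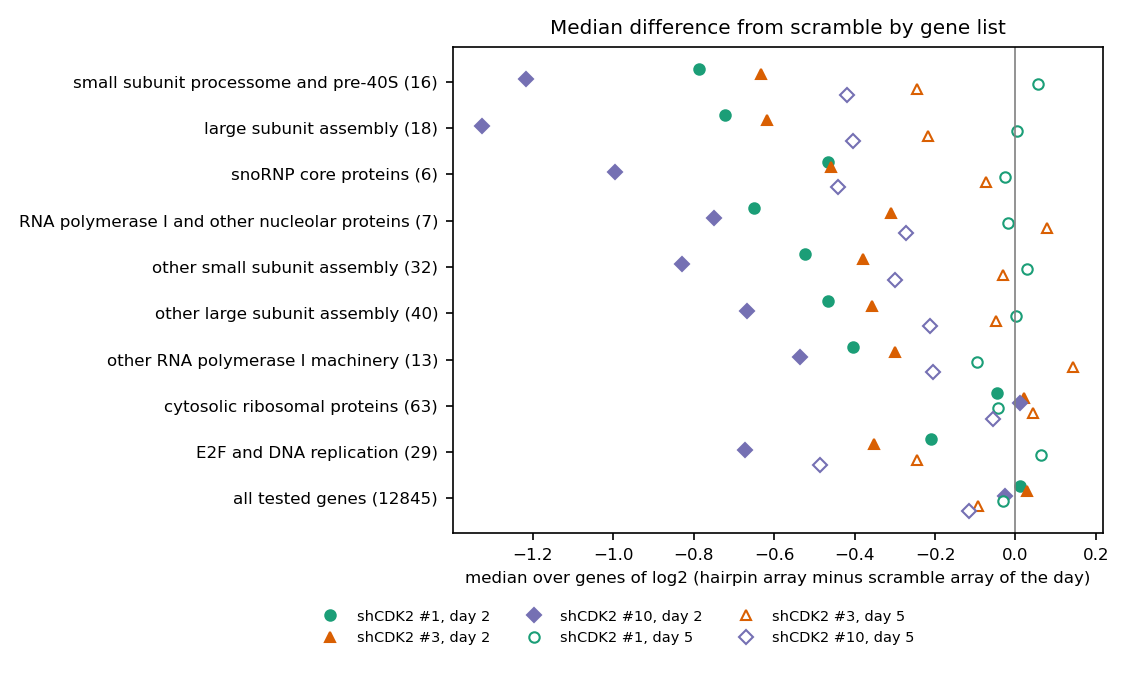
Median over the genes of each list of the log2 difference between a hairpin array and the scramble array of its day (filled, day 2; open, day 5), with the number of tested genes in brackets. The 4 upper lists are the 47 genes by role; they reach -1.32 in #10 at day 2, while the medians of cytosolic ribosomal protein genes, most of which are much brighter, lie between -0.06 and 0.04.

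MYC read 12.47 in scramble, 11.85 in #1, 12.59 in the array labelled #3 and 12.08 in #10 at day 2, and 12.26, 11.79, 12.46 and 11.83 at day 5. Its antagonist MXI1 read 9.45, 9.88, 11.46 and 11.94 and then 9.16, 9.37, 11.43 and 11.41, so that #3 and #10 lay above #1 and scramble on both days. It was called higher by limma in #10 (2.37, adjusted p = 0.013), where 1.69% of all tested genes were called higher. In #3 limma also called it higher (2.14, adjusted p = 0.044), against 0.0311% of all tested genes. No other of the 8 genes in the MYC network list was called in either. The list had a median of -0.02 log2 in #10 (4 higher, 4 lower) and 0.10 in #3 (5 higher, 3 lower). MXD1, a further antagonist, was highest in #3 and #10 at day 5 (9.48 and 9.64, against 7.77 in scramble). MYC was lower in #1 than in #3 on both days. Whether MYC or its antagonists had a part in the members' differences was not tested.

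In #10 and in the mean over hairpin arrays, the probe sets of a gene mostly gave the same direction. Of the 36 genes with several probe sets, 35 had every probe set lower in #10 and all 36 in the mean over hairpin arrays, and of 115 probe sets in all, 114 were lower in #10. The exception was a WDR3 probe set with a mean of 4.97 log2. For #1 and #3 alone such agreement was not counted. In #3, NOLC1 differed from scramble by 0.07 on its brightest probe set, but by -0.65 and -0.72 on its others. For NOL6, with 7 probe sets, the difference in #10 ran from -1.34 on the brightest to -0.22 on another. The probe sets used for 8 genes end in x_at and those for 12 in s_at, which by Affymetrix naming may also match related transcripts.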

How the data were processed

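The 8 Affymetrix arrays of NB4 cells used 6 micrograms of RNA each. Signals on a log2 scale, inferred from their range, were deposited by the authors for 49395 probe sets. Per the submitters' processing notes Partek was used; for its version and normalization the entry is not given in the sources used here. In the platform annotation 44994 probe sets had a single gene, 1832 several and 2569 none; symbols were updated by Entrez gene ID (44967 matched). A gene stood for its probe set with the highest mean and was tested where that mean exceeded the 40th percentile of all probe sets.

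Two-sided limma 3.58.1 tests in R 4.3.3 used empirical Bayes moderation and Benjamini-Hochberg adjustment over 12845 genes, with adjusted p under 0.05 called. The fit by group and day had 4 residual degrees of freedom (prior 3.13), and the fit by hairpin, with a day term, had 3 (prior 4.54). The spread of the hairpins was taken to hold for scramble too. Scripts were tested on simulated data. The number of arrays limits the precision.

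The members, roles, lists and motifs were chosen with earlier results of these data known. Shown in full are GRWD1, UTP20, RRP15 and UTP3 and, per role, the 3 members with the lowest and the 1 with the highest mean difference between the hairpin arrays and scramble, beside other members added after their values were seen (DDX10, FBL, DKC1, NCL, NPM1, MRTO4, the PeBoW genes, UTP15, RRP1B, NOP14). Of each further list at most 3 genes with the largest mean change could be named, apart from MYC, which was added. Motifs were searched in the 250 bases before the first start listed per gene. Alternatives were quantile normalization, median centring, no filter, other probe set rules, an intensity trend, a replicate block and leaving out arrays; leaving out single arrays other than #3 at day 2 and scramble at day 5 was added after seeing the data.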

Additional observations from a re-analysis of the deposited data

Results flagged for a closer look

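DDX21, the RNA helicase, was below scramble in every hairpin array at day 2 and above it in every hairpin array at day 5 on its brightest probe set. On the gene's other 2 probe sets #10 lay below scramble at day 5 (11.615 against 11.902, and 11.17 against 11.503), and on the dimmest so did #3 (11.308). The difference of its knockdown change between days was 0.794 log2 (SE 0.37), and limma's test of that difference gave adjusted p = 1.00.

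TSR1 and RRP1B were lower at day 5 than at day 2 in scramble and higher at day 5 in every hairpin. For TSR1 the gap between days was 0.34 log2 in #1, 0.020 in #3 and 0.013 in #10, and on the second RRP1B probe set #3 was lower at day 5 (6.066 against 6.332). The difference between the groups was 0.926 log2 for TSR1 (SE 0.53) and 1.04 log2 for RRP1B (SE 0.55), and neither passed in limma (adjusted p = 1.00 each). The scramble change rests on 1 array per day.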

How the results depend on the processing

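Under every alternative run, limma called 0 members in the pooled knockdown at either day, in day 5 against day 2, in the difference between days and in hairpins #1 and #3. In #10 the count of 3 became 5 after quantile normalization and 0 after median centring. It was 7 when the day 2 array labelled #3 was left out and 0 when the day 5 array labelled scramble was, and leaving out a hairpin or another single array gave 0 to 7. After median centring limma's adjusted p was 0.072 for GRWD1, 0.053 for UTP20 and 0.085 for RRP15. With the day 5 array labelled scramble left out, the median change of the members was -0.66 in #1, -0.68 in #3 and -1.04 in #10. Leaving out 1 hairpin or another single array gave medians of -0.49 to -0.050 in #1, -0.42 to -0.079 in #3, -0.99 to -0.45 in #10 and -0.13 to 0.16 in day 5 against day 2. In day 5 against day 2 the replicate block by hairpin number also called 0 members, with a median of 0.03. In the fit by group and day the numbers were not taken as pairs: deviations from the group means of same-numbered arrays correlated at 0.72 for #1, -0.23 for #3 and 0.43 for #10. Those of #10 at day 2 and #3 at day 5 correlated at 0.57. The fit by hairpin did take same-numbered arrays as repeats, so its results for #3 join arrays that did not agree. The pooled comparison at day 5 and the difference between days could not be made without the day 5 array labelled scramble. Alternatives that leave out single arrays other than #3 at day 2 and scramble at day 5 were chosen after seeing the data. The cause of these moves was not tested. Signal over background was not measured here, which limits RRP15 most.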
